A study of Homo sapiens with 3 samples.

Results

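Epithelial cells and mesenchymal cells are told apart by a small set of transcripts, and 10 of them are described here in a brain-seeking lung cancer line with and without depletion of the DNA repair enzyme PARP1. The genes are the cadherins CDH1 and CDH2, the intermediate filament genes VIM, KRT7, KRT8, KRT18 and KRT19, and the transcription factor genes OVOL2, TWIST1 and SNAI2. They were chosen by name, with earlier results of these data known. Every probe that the platform annotation assigns to 1 of these symbols was taken. This gave 13 of the 47309 probes on the array, for 10 of 20044 genes named by a probe. CDH2, OVOL2, TWIST1, CDH1, KRT7, KRT8 and KRT19 had 1 probe each, and VIM, KRT18 and SNAI2 had 2. By a detection p under 0.01, 8 probes of 6 genes were above background on all 3 arrays, and the 5 probes of CDH1, KRT7, KRT19 and SNAI2 were not above background on any.

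Epithelial cells adhere through E-cadherin, the product of CDH1, and carry keratin filaments built from pairs of an acidic and a basic keratin, such as KRT18 with KRT8. Mesenchymal cells carry vimentin filaments, the product of VIM, and often N-cadherin, the product of CDH2. The passage from the first state to the second, the epithelial-mesenchymal transition, is driven by factors of the SNAI, ZEB and TWIST families, which bind E-box sequences and repress epithelial genes, and it is opposed by factors such as OVOL2 and GRHL2. Carcinoma cells often hold features of both states.

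The RNA came from H2030-BrM3, human lung adenocarcinoma cells that were selected from the line H2030 for growth as brain metastases. One array held cells with a non-targeting shRNA (the control), 1 held cells with PARP1 targeting shRNA-1 (hairpin 1) and 1 held cells with PARP1 targeting shRNA-2 (hairpin 2). All cells were grown in RPMI 1640 with 10% serum, with a culture day of 1 for all 3 arrays. Per the array names in the labels all 3 arrays lay on 1 BeadChip. The hairpins are the only replicates of PARP1 depletion, and the control has none. Separate cultures are not mentioned in the labels. The spread behind every p-value is estimated from the gaps between the 2 hairpins. In it, technical variation and differences between the hairpins cannot be told apart.

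The median signal of the arrays ran from 152.2 to 161.7, the highest being that of hairpin 2, and 34.6% to 36.8% of probes were above background. PARP1 gave signals of 4365 (control), 1312 (hairpin 1) and 765.8 (hairpin 2). After normalization the transcript stood at 28.3% (hairpin 1) and 12.9% (hairpin 2) of its control level, so the targeted gene followed the labels. Its mean log2 change of −2.39 ± 0.28 (moderated SE) passed the limma test over 18263 probes (adjusted p = 0.00595), but not when each gene was represented by its brightest probe (adjusted p = 0.713). Over 11 other settings its limma adjusted p ran from 1.96e-25 to 0.897. None of 5 lung adenocarcinoma markers (NKX2-1, NAPSA, SFTPB, SFTPC and SFTA2) had a probe above background. Of the simple epithelium markers, EPCAM, KRT8 and KRT18 did, and KRT7 and KRT19 did not. Of the fibroblast markers, COL1A1 and COL3A1 were above background on all 3 arrays, and COL1A2, DCN and LUM on none. The neuroendocrine marker INSM1 and the leukocyte marker CD68 were also above background on all 3 arrays. The neuroendocrine markers CHGA and SYP were above background on none, nor were the leukocyte markers PTPRC, CD3E and CD14. The squamous markers KRT5, KRT14 and DSG3 were not above background on any array. Before normalization, the summed signal of the 6 fibroblast markers was 1084 (control), 1110 (hairpin 1) and 1138 (hairpin 2). Its part in the results was not tested. The sum of 4 endothelial markers, none of them above background, rose in the same order (551.5, 555.8 and 584.2).

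Upstream sequences of 3 of the 10 genes were at hand, namely CDH2, VIM and KRT8, and are shown since all 3 genes were above background. Each window runs from 250 bases before to 50 bases after an annotated transcript start (RefSeq, GRCh38.p14) and is read 5′ to 3′ on the gene's strand. CDH2 has a start in chr18:28177081-28177380 and another in chr18:28036592-28036891, both on the minus strand, VIM has one in chr10:17227991-17228290 on the plus strand, and KRT8 has one in chr12:52926420-52926719 on the minus strand. Capitals mark matches to the E-box CANNTG, which reads alike on both strands.
CDH2, first start: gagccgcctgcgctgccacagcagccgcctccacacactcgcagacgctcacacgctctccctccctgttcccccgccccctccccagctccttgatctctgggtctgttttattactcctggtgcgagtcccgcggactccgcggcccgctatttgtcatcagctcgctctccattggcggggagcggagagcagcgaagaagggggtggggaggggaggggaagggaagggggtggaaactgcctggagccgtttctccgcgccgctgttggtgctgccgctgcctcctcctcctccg
CDH2, second start: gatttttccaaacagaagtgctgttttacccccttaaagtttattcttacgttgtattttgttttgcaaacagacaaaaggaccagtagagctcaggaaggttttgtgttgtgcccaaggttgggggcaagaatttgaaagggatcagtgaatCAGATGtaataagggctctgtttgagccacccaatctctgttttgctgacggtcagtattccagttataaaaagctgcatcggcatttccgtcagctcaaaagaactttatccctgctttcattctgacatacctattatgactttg
VIM: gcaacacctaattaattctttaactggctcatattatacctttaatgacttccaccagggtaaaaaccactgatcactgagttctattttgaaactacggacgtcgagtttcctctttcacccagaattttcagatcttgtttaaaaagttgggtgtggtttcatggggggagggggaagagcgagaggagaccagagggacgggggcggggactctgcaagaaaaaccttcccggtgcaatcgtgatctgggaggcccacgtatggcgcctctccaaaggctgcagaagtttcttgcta
KRT8: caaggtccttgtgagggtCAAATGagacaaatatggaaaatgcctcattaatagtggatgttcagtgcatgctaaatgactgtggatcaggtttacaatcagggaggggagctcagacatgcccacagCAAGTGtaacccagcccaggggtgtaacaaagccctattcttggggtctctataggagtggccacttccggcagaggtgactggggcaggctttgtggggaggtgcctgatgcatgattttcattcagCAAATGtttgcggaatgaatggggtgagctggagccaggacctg
The window at the second CDH2 start held 1 match, CAGATG, which begins 97 bases before the start. The KRT8 window held 3 matches. CAAATG begins at positions −232 and 7, and CAAGTG at position −122, counted from the transcript start. The first CDH2 window and the VIM window held none. Of 35116 such windows over all genes, 68.7% held at least 1 match. The narrower form CACCTG or CAGGTG, which is contained in CANNTG, was found in none of these windows and in 20.6% of all. These matches are descriptions of the letters and not measured binding sites.

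Among the epithelial genes, OVOL2 and KRT18 had log2 levels below the control with both hairpins, and KRT8 did not. OVOL2, a zinc finger factor that represses mesenchymal genes, had signals of 435.7 (control), 361.2 (hairpin 1) and 416.4 (hairpin 2). Its normalized log2 levels were 8.35, 7.96 and 7.99, so the control was the highest array and the hairpins differed from each other by only 0.03. The log2 ratios to the control were −0.39 and −0.36, which is 76.3% and 78.1% of the control. In RNA of whole cultures, fewer cells with the transcript and less of it in each cell cannot be told apart. The mean log2 change was −0.37 ± 0.16 (moderated SE, 95% interval −0.72 to −0.03), with an unadjusted limma p of 0.0357. It did not pass the adjustment over all probes (limma adjusted p = 0.997).

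KRT18, the acidic keratin of simple epithelia, was read by 2 probes. Probe ILMN_1803408 had normalized log2 levels of 8.81 (control), 8.63 (hairpin 1) and 8.54 (hairpin 2). Probe ILMN_1730848 had 7.66, 7.38 and 7.27 in the same order. On these levels the control was the highest array and hairpin 2 the lowest by both probes. The log2 ratios were −0.18 and −0.28 by the first probe and −0.28 and −0.38 by the second. The mean log2 change was −0.23 ± 0.15 by the first and −0.33 ± 0.18 by the second (moderated SE). The unadjusted limma p was 0.159 and 0.0921, and neither passed the adjustment (limma adjusted p = 0.997 for both). Before normalization the spread was narrower, with signals of 548.7, 500.7 and 544.0 by the first probe, where control and hairpin 2 were nearly level. By the second they were 316.6, 283.7 and 304.1, so hairpin 1 was the lowest by both. With median scaling the log2 ratios were −0.18 and −0.11 by the first and −0.27 and −0.23 by the second. Relative to the median of all probes, hairpin 2 then stood at −0.25 and −0.36.

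KRT8, the basic partner of KRT18, lay on both sides of the control. Its signals were 861.3 (control), 891.6 (hairpin 1) and 936.1 (hairpin 2), and its normalized log2 levels were 9.61, 9.66 and 9.49. The log2 ratios were 0.05 with hairpin 1 and −0.12 with hairpin 2. The mean log2 change of −0.03 ± 0.15 (moderated SE) had a 95% interval from −0.34 to 0.28, with a limma adjusted p of 0.998. With each array scaled to its median instead, KRT8 stood at 0.05 with both hairpins, but that scaling moved the median of all probes to 0.133 with hairpin 2. Relative to the median of all probes it stood at 0.05 and −0.08, again on both sides. The partner keratins were not tested against each other.

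CDH1, KRT7 and KRT19 gave no level above background. CDH1 had signals of 160.8 (control), 138.0 (hairpin 1) and 164.8 (hairpin 2), with detection p-values of 0.0442, 0.569 and 0.0922. KRT7, a basic keratin of glandular epithelia that is widely present in lung adenocarcinoma, had signals of 141.4, 147.1 and 131.4, with detection p-values of 0.478, 0.231 and 0.962. KRT19, an acidic keratin, had signals of 141.2, 145.0 and 143.0, with detection p-values of 0.484, 0.292 and 0.692. Only the control value of CDH1 would pass a looser threshold of 0.05. No fold is given for these genes, since both sides of each comparison are not above background.

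**Figure D1:**
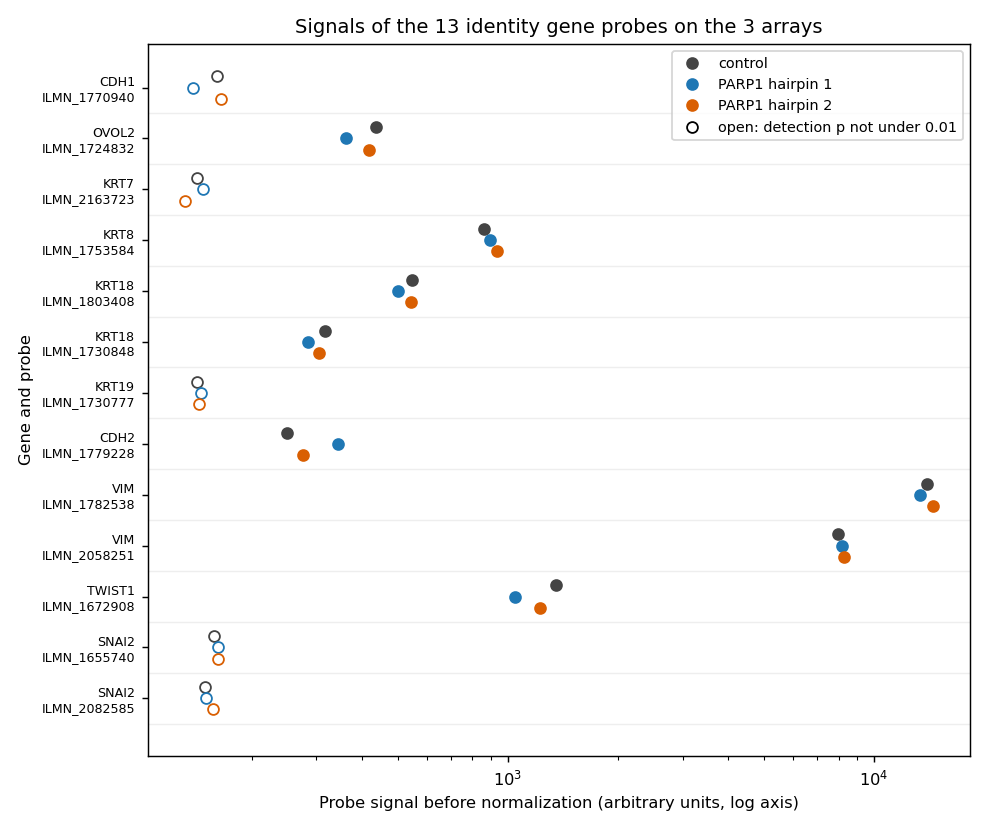
Signals of the 13 probes before normalization, in arbitrary units on a log axis, with 1 point for each array and open points where the detection p was not under 0.01. VIM, TWIST1, KRT8, KRT18, OVOL2 and CDH2 are filled on all 3 arrays, while CDH1, KRT7, KRT19 and SNAI2 are open throughout. Distances between different probes do not compare transcript levels.

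Of the mesenchymal genes, VIM was nearly level across the arrays, TWIST1 had log2 levels below the control with both hairpins and CDH2 differed between the hairpins. VIM probe ILMN_1782538 had signals of 13963 (control), 13340 (hairpin 1) and 14485 (hairpin 2). Probe ILMN_2058251 had signals of 7980, 8177 and 8260. The normalized log2 ratios to the control were −0.06 and −0.04 by the first probe and 0.02 and −0.09 by the second. The mean log2 change was −0.05 ± 0.09 by the first probe (moderated SE, 95% interval −0.24 to 0.14) and −0.04 ± 0.10 by the second (−0.25 to 0.18). A 1.2-fold difference either way, a log2 value of 0.263, lies outside both intervals, but only narrowly on the lower side. The intervals assume that the 1 control array varies like the hairpins.

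TWIST1, a basic helix-loop-helix factor that promotes the mesenchymal state, had signals of 1351 (control), 1047 (hairpin 1) and 1227 (hairpin 2). Its normalized log2 levels were 10.33, 9.92 and 9.96. The control was the highest array, and the hairpins differed by 0.04. The log2 ratios were −0.41 and −0.38, which is 75.3% and 77.1% of the control. The mean log2 change was −0.39 ± 0.14 (moderated SE, 95% interval −0.68 to −0.10), with an unadjusted limma p of 0.0109, the lowest of the 8 probes. It did not pass the adjustment over all probes (limma adjusted p = 0.997). OVOL2 and TWIST1, which act in opposite directions on epithelial identity, had similar ratios to the same control array.

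CDH2, which encodes N-cadherin, had signals of 248.7 (control), 342.9 (hairpin 1) and 275.8 (hairpin 2). Its normalized log2 levels were 7.02, 7.84 and 7.01, so hairpin 1 stood apart and hairpin 2 was level with the control. The log2 ratio was 0.82 with hairpin 1, or 1.77-fold, and −0.01 with hairpin 2. The hairpins differed by −0.83 (hairpin 2 minus hairpin 1), and 4.99% of all probes were at least 1.5-fold apart between them. The mean log2 change was 0.41 ± 0.26 (moderated SE, 95% interval −0.16 to 0.97; limma adjusted p = 0.997). Hairpin 2, with the lower PARP1 level, gave the CDH2 value nearer the control. Each hairpin has 1 array, so the difference between them has no test.

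SNAI2, a zinc finger repressor of CDH1, was not above background by either of its probes. Probe ILMN_1655740 had signals of 157.8 (control), 161.7 (hairpin 1) and 161.5 (hairpin 2), with detection p-values of 0.0727, 0.0377 and 0.122. Probe ILMN_2082585 had signals of 148.5, 149.4 and 156.2, with detection p-values of 0.261, 0.174 and 0.218. No fold is given for it.

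The 8 probes above background were also counted by size, with at least 1.2-fold as the bound. With hairpin 1, 3 of 8 were at least 1.2-fold lower than the control (1 KRT18 probe, OVOL2 and TWIST1), where 12.6% of all 18263 probes were, and 1 of 8 was at least 1.2-fold higher (CDH2), where 11.6% of all were. With hairpin 2, 4 of 8 were lower (both KRT18 probes, OVOL2 and TWIST1), where 13.1% of all were, and 0 of 8 were higher, where 14.1% of all were. The probes are not independent, since the KRT18 pair reads 1 gene and both comparisons use the same control array. The genes were also chosen with earlier results of these data known, so these counts beside the shares are not a test. The median log2 ratio of the 8 probes was −0.12 with hairpin 1 and −0.20 with hairpin 2, against 0.002 with either hairpin over all probes. At 1.5-fold, 0 of 8 were lower with hairpin 1 (2.73% of all probes) and 1 of 8, CDH2, was higher (1.98% of all). With hairpin 2, 0 of 8 were lower (2.5% of all) and 0 of 8 higher (2.92% of all) at 1.5-fold. In limma 0 of the 8 passed the adjusted threshold, where 0.011% of all probes (PARP1 and CTBP2, 1 probe each) did, and 2 of 8 had an unadjusted p under 0.05, where 4.3% of all did. Of probes above background on all 3 arrays, as the 8 are, 8.95% were at least 1.2-fold lower and 9.23% higher with hairpin 1. With hairpin 2 these shares were 10.7% and 10.4%. With the main processing, OVOL2, TWIST1 and both KRT18 probes lay inside the central range of all 18263 probes. It starts at the 5th percentile, −0.45 with either hairpin. That range includes dim probes that were not above background on all 3 arrays. TWIST1 had 5.92% of probes at or below it with hairpin 1 and 6.96% with hairpin 2, and OVOL2 had 6.59% and 7.66%. Without background correction, 3.01% of all probes were at least 1.2-fold lower with hairpin 1, TWIST1 (−0.37) and OVOL2 (−0.27) among them. With hairpin 2 the share was 3.12%, TWIST1 (−0.34) among them. On the deposited values the shares were 2.95% and 3.2%, with TWIST1 (−0.36 and −0.34) in both. There these probes lay below the 5th percentile.

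**Figure D2:**
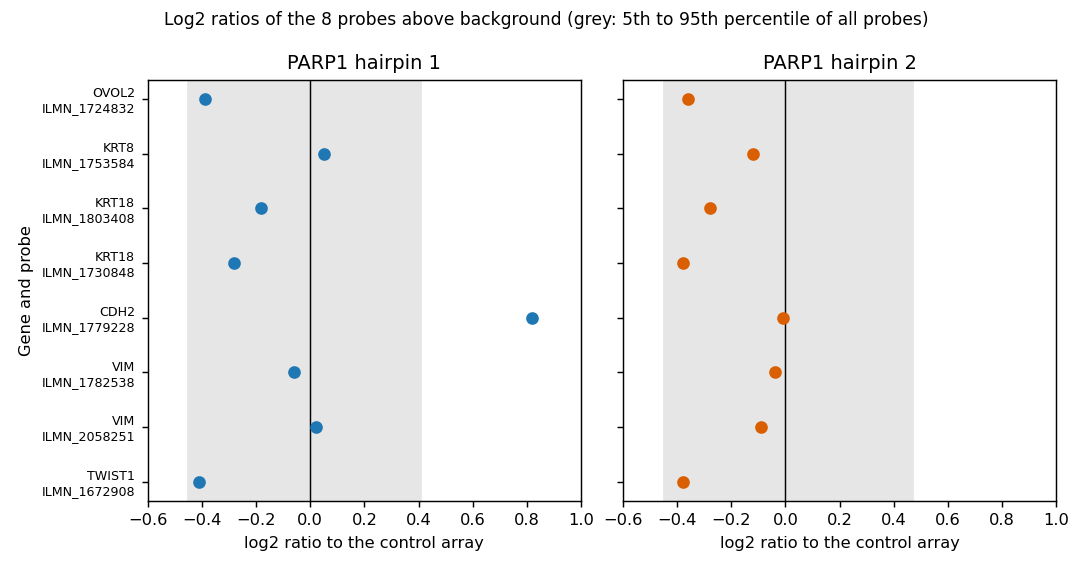
Log2 ratios to the control array for the 8 probes above background with the main processing, hairpin 1 on the left and hairpin 2 on the right. The grey band runs from the 5th to the 95th percentile of all 18263 probes, −0.45 to 0.41 for hairpin 1 and −0.45 to 0.47 for hairpin 2. CDH2 with hairpin 1, at 0.82, is the 1 point outside it.

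The size of these ratios depended on how background was treated, and their direction did not for OVOL2, TWIST1 and KRT18. Without background correction, the log2 ratios of OVOL2 were −0.27 and −0.25, those of TWIST1 −0.37 and −0.34, and those of the dimmer KRT18 probe −0.16 and −0.22. On the authors' deposited normalized values they were −0.26 and −0.24 for OVOL2, −0.36 and −0.34 for TWIST1, and −0.15 and −0.21 for that KRT18 probe. CDH2 with hairpin 1 was at 0.47 without background correction and at 0.45 on the deposited values. With median scaling, the median of all probes moved to 0.133 with hairpin 2, and OVOL2 and TWIST1 then stood at −0.20 and −0.24 with that hairpin. Relative to that median they stood at −0.33 and −0.37.

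**Figure D3:**
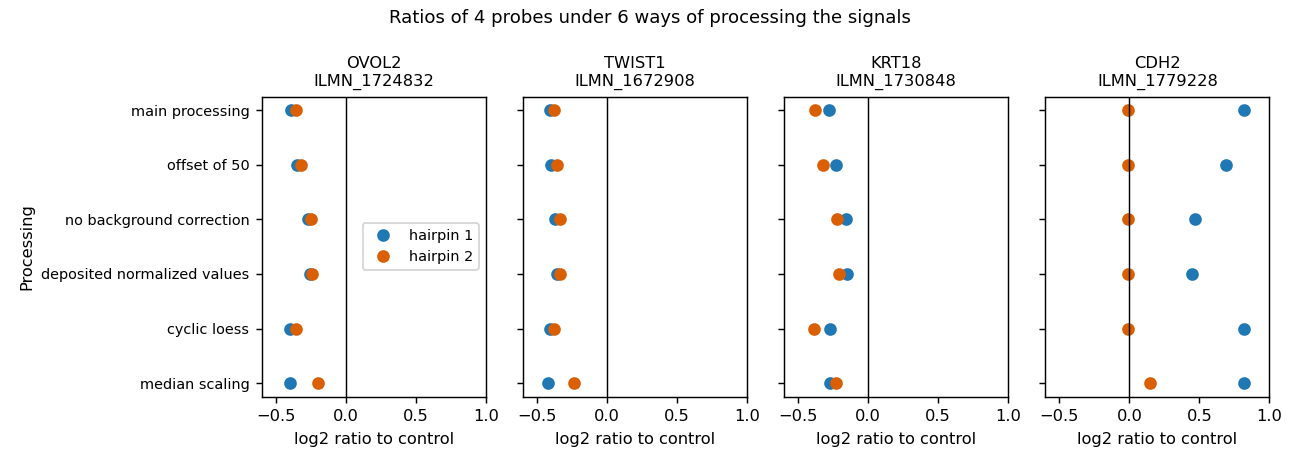
Log2 ratios to the control of OVOL2, TWIST1, 1 KRT18 probe and CDH2 under 6 ways of processing the signals, with 1 point for each hairpin. The points of OVOL2, TWIST1 and KRT18 stay below 0 throughout, and CDH2 separates the hairpins in every row, from 0.45 against −0.01 on the deposited values to 0.82 against −0.01 with the main processing.

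Genes related to these 10 were followed in 6 lists, with 1 probe a gene, the brightest. Of 105 listed genes, 43 had a probe above background on at least 1 array, and 12 were not analysed here. Of the 43, 36 were above background on all 3 arrays. The other 7 (CRB3, PATJ, CLDN3, MAL2, CDH24, COL6A2 and MMP14) entered through 1 or 2 arrays only, so their direction was partly set by that filter. All but PATJ are named beside the counts that hold them, and the 7 were named after their values were seen. None of the 43 passed the limma adjusted threshold (lowest adjusted p = 0.997). Over all 10692 genes the share at least 1.2-fold lower was 10.2% with either hairpin, and the share at least 1.2-fold higher was 9.84% with hairpin 1 and 11.6% with hairpin 2.

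The list of epithelial adhesion genes had 18 of 22 genes above background, of which 3 were at least 1.2-fold lower and 0 higher with hairpin 1, and 2 lower and 2 higher with hairpin 2. CLDN7 was lower with both hairpins, and the other lower entries were CRB3 with both, above background on the control array only, and CLDN3 with hairpin 1, where it was not above background. The list's median log2 ratio was −0.05 and −0.02, or −0.03 and 0.01 over the 15 genes above background on all 3 arrays. EPCAM, an epithelial adhesion molecule, had log2 levels of 9.43 (control), 9.48 (hairpin 1) and 9.48 (hairpin 2) by its brightest probe. Its 2 other probes gave 0.08 and 0.05, and −0.46 and −0.07, as log2 ratios to the control. DSP, which anchors keratin to desmosomes, had log2 ratios of −0.08 and 0.05, and JUP, the plakoglobin of the same junctions, 0.02 and 0.00. CTNNB1, the beta-catenin that binds cadherin tails, had 0.02 and 0.01, and −0.11 and 0.10 by another probe. Its probe ILMN_1651617, above background on 1 array only, had −0.33 and −0.37. The tight junction scaffold TJP1 had −0.16 and −0.16, while its other probe, also above background on all 3 arrays, had 0.10 and 0.17. By the mean over both hairpins, the lowest genes above background on all 3 arrays were the claudin CLDN7 (−1.14 and −0.81) and the plakin PPL (−0.22 and −0.24). The unadjusted limma p of CLDN7 was 0.000884, and its log2 ratios were −0.53 and −0.40 without background correction. The highest by that mean were DSG2, a desmosomal cadherin (0.14 and 0.07), and MARVELD2, a protein of tricellular junctions (0.21 and 0.32). With hairpin 2 alone, the plakophilin PKP3 (0.32) and PKP2 (0.17) lay above DSG2. The other MARVELD2 probe went the opposite way (−0.41 and −0.56).

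The epithelial regulators were mostly dim. Of 14 genes, 4 had a probe above background on at least 1 array. GRHL2, a grainyhead factor that maintains CDH1 transcription, and ESRP1 and ESRP2, the epithelial splicing factors, were above background on none. Their lowest detection p-values on any array were 0.319, 0.144 and 0.37. With hairpin 1, 1 of the 4 was at least 1.2-fold lower and 0 were higher, and with hairpin 2, 0 were lower and 1, KLF5, was higher. The lower entry was MAL2, which was not above background with hairpin 1. The list's median log2 ratio was −0.11 and 0.10, and without MAL2 it was −0.08 and −0.03. KLF5, a zinc finger factor of proliferating epithelia, had signals of 289.4, 317.8 and 427.9 and log2 ratios of 0.23 and 0.61, with an unadjusted limma p of 0.043. Without background correction its ratios were 0.14 and 0.38. The protease inhibitor SPINT2 had −0.08 and −0.24, and the epithelial ETS factor ELF3 had −0.13 and −0.03.

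Of 9 other keratin genes with a probe, 2 were above background. KRT80 had log2 ratios of −0.24 and −0.08, and KRT10 had −0.17 and 0.01, so 0 of 2 reached 1.2-fold with either hairpin. The list's median was −0.21 with hairpin 1 and −0.04 with hairpin 2. A second KRT80 probe gave −0.34 and −0.03.

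Among other cadherin genes, 4 of 11 were above background on at least 1 array. With hairpin 1, 1 was at least 1.2-fold lower and 1 higher, and with hairpin 2, 2 were lower and 1 higher. The entry lower with hairpin 1, and 1 of the 2 with hairpin 2, was CDH24, with signals of 177.1, 163.3 and 168.3, above background on the control array only. The list's median log2 ratio was −0.12 and −0.34, and without CDH24 it was −0.12 and −0.25. CDH10, a neuronal type II cadherin, had signals of 190.4, 238.8 and 245.6 and log2 ratios of 0.84 and 0.62. Its unadjusted limma p was 0.00959, and its ratios were 0.34 and 0.24 without background correction. CDH11, a mesenchymal cadherin, had log2 levels of 11.34, 11.21 and 11.08 and ratios of −0.12 and −0.25. CDH15 had signals of 185.8, 179.4 and 182.6 and ratios of −0.13 and −0.42, which were −0.04 and −0.12 without background correction. CDH3, the placental cadherin, was not above background, with a lowest detection p-value of 0.457.

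The mesenchymal transcription factors other than TWIST1 were also mostly dim, with 2 of 11 genes above background. These were TWIST2, the close relative of TWIST1, with log2 ratios of 0.04 and 0.14, and TCF3, an E-box factor that pairs with TWIST proteins, with 0.03 and 0.13. Neither reached 1.2-fold, and the median was 0.03 and 0.14. ZEB1, ZEB2 and SNAI1, which repress CDH1, were not above background, with lowest detection p-values of 0.104, 0.151 and 0.268. By these probes, TWIST1, TWIST2 and TCF3 were the factors of this group with signal in the cells. A probe that is not above background sets only a bound on its transcript.

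Of 26 mesenchymal effector genes with a probe, 13 were above background on at least 1 array. With hairpin 1, 2 were at least 1.2-fold lower and 1 higher, and with hairpin 2, 1 was lower and 4 were higher. The lower entries were COL6A2 with both hairpins, above background on the control array only, and MMP14 with hairpin 1. MMP14 was above background with hairpin 2 only and was 1 of the 4 higher there. CD44, named after its values were seen, was another, with log2 ratios of 0.01 and 0.33. Its other probe, also above background on all 3 arrays, had −0.25 and 0.00. The list's median log2 ratio was 0.07 and −0.09. ITGA5, the fibronectin-binding integrin chain, had signals of 355.6, 410.7 and 492.1 and log2 ratios of 0.32 and 0.41. Its unadjusted limma p was 0.0384, and its ratios were 0.22 and 0.28 without background correction. NT5E, the ectonucleotidase CD73, had 0.07 and 0.39. The fibrillar collagen gene COL3A1 had −0.15 and −0.26, and the matrix protein gene TGFBI 0.03 and −0.21. FN1, which encodes fibronectin, was not above background by any of its 3 probes. Its lowest detection p-value was 0.239.

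**Figure D4:**
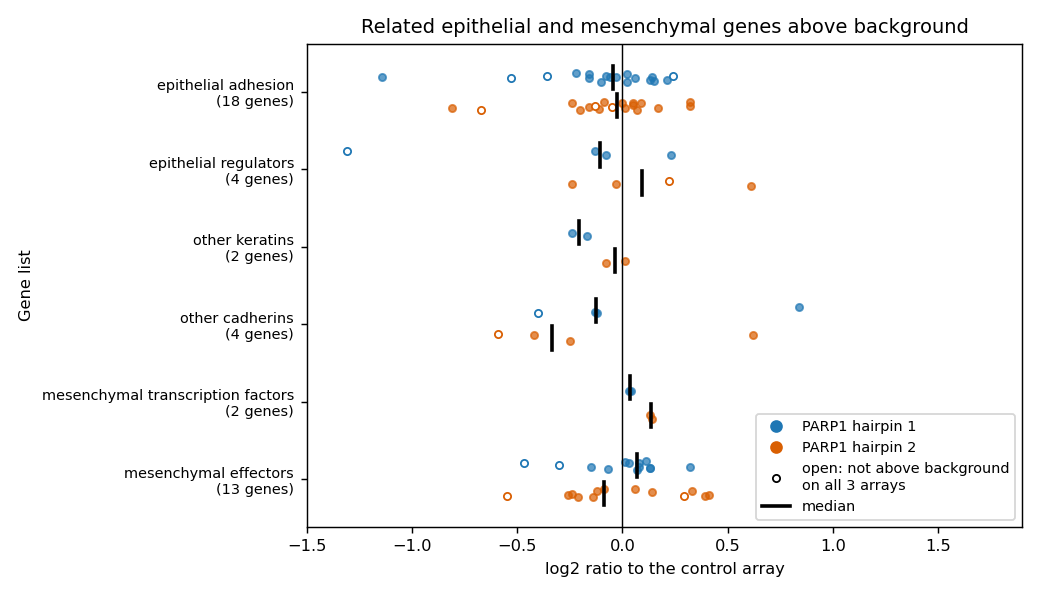
Log2 ratios to the control array of the listed genes above background on at least 1 array, by list, with 1 point for each gene and hairpin, open where the gene was not above background on all 3 arrays, and a black bar at the median of all points. The medians lie between −0.34 (other cadherins, hairpin 2) and 0.14 (mesenchymal transcription factors, hairpin 2). The points furthest from 0 include dim genes, among them MAL2 (open) at −1.31, CLDN7 at −1.14 and CDH10 at 0.84, all with hairpin 1.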

How the data were processed

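Expression was measured on 3 Illumina HumanHT-12 V4 BeadChip arrays of H2030-BrM3 cells. Each probe has a mean bead intensity in the first deposited table, on a linear scale, from GenomeStudio per the submitters' processing notes. Next to it the authors deposited a detection p-value, per the file headers, a rank of the probe among negative controls in steps of 1 in 770. The second deposited table holds intensity values that share a median of 152.6 and whose sorted columns differ by at most 0.706, so the authors' quantile normalization was inferred. The GenomeStudio version and background setting are not given in the labels and files used here.

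The platform annotation gave 1 gene symbol for 30106 probes, several for 8 and none for 17195. A RefSeq table (GRCh38.p14) held 30067 of the gene IDs. Signals were corrected for background and normalized by limma's neqc (limma 3.58.1, R 4.3.3, offset 16, quantile, log2). The 18263 probes whose detection p lay under 0.01 on 1 array or more were tested with lmFit and eBayes, using an intensity trend and Benjamini-Hochberg adjustment at 0.05. The gap between the hairpins is the 1 residual degree of freedom, to which a median of 14.5 prior degrees was added, and the control is assumed to vary like the hairpins. The median moderated SE was 0.168, a 95% half-width of 0.356, and the number of arrays limits the precision. Ratios of single arrays were counted past 1.2-fold, with no test.

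Members and lists were chosen with earlier results of these data known. The text names all member probes, PARP1, 15 fixed genes of the lists, and in each list the 2 highest and 2 lowest genes above background on all 3 arrays. Alternatives were other background corrections, scalings, filters on dim probes, 1 value a gene, another variance prior and a 1.5-fold bound.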

Additional observations from a re-analysis of the deposited data

How the results depend on the processing

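The mean log2 changes of OVOL2, TWIST1, CDH2, both KRT18 probes and both VIM probes kept their sign under every alternative with both hairpins. Each had 9 to 11 alternatives. The other filters, 1 value a gene and the other variance prior reuse the main normalized values. The sign could not change in these, so only the other background corrections, the scalings and the deposited values bear on it. No member passed the limma adjusted threshold in any alternative (lowest adjusted p = 0.748, TWIST1). Median scaling moved the median of all probes to 0.133 with hairpin 2, which enters every count and median given for it here. KRT8 went from −0.03 to 0.05 with it, and stood at 0.05 (hairpin 1) and −0.08 (hairpin 2) relative to that median. Leaving out 1 hairpin gave CDH2 from −0.01 to 0.82, KRT8 from −0.12 to 0.05 and VIM probe ILMN_2058251 from −0.09 to 0.02. The number of probes called was 2, and became 0 with probes above background on all 3 arrays, 0 with the brightest probe of each gene, 0 with no intensity trend 1 with the mean of each gene's probes, 3 with median scaling and 3 with no filter on dim probes. PARP1 lost its call in the first 3 (limma adjusted p of 0.546, 0.713 and 0.897).

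Of member probes at least 1.2-fold lower, 3 with hairpin 1 became 1 on the deposited values, and 4 with hairpin 2 became 1 without background correction, 0 with median scaling and 1 on the deposited values. Relative to the shifted median, 3 were still lower with hairpin 2 under median scaling (OVOL2, TWIST1 and KRT18 probe ILMN_1730848). At 1.5-fold both became 0. Of all probes, the share lower with hairpin 1 (12.6%) became 3.01% without background correction, 8.3% with an offset of 50, 2.95% on the deposited values and 2.73% at 1.5-fold. The share higher (11.6%) became 2.37%, 7.52%, 2.31% and 1.98% in that order. With hairpin 2 the share lower (13.1%) became 3.12% without background correction, 6.54% with median scaling, 3.2% on the deposited values and 2.5% at 1.5-fold, and the share higher (14.1%) became 3.67%, 28.7%, 3.68% and 2.92%. Beyond that shift the cause was not tested.

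The median change of epithelial adhesion genes (0.0031) was 0.07 with median scaling and −0.02 with the mean of each gene's probes. Without the filter on dim probes the median of other cadherins (−0.23) was −0.01 and that of mesenchymal transcription factors (0.08) was −0.07, over more genes. Leaving out 1 hairpin gave medians from −0.05 to −0.02 for epithelial adhesion, −0.11 to 0.10 for epithelial regulators, −0.21 to −0.04 for keratins, −0.34 to −0.12 for cadherins, 0.03 to 0.14 for mesenchymal factors and −0.09 to 0.07 for mesenchymal effectors.

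Listed genes were counted over 43 in the main processing, 36 with the filter on all 3 arrays, and more with looser filters. Of those at least 1.2-fold lower, 7 with hairpin 1 became 1 with genes above background on all 3 arrays, 16 with no filter and 11 with a detection p under 0.05. They became 2 without background correction, 3 with an offset of 50 and 2 on the deposited values. The share of all probes lower went from 12.6% to 8.95%, 11.3%, 16.1%, 3.01%, 8.3% and 2.95% in that order. Those higher with hairpin 1 (2) became 5 with no filter, 4 with a detection p under 0.05, 1 without background correction and 1 on the deposited values. Over all probes that share went from 11.6% to 11.3%, 14.8%, 2.37% and 2.31%. Those lower with hairpin 2 (5) became 2, 14, 11, 1 and 2 with the filter on all 3 arrays, no filter, a detection p under 0.05, no background correction and the deposited values. Over all probes it went from 13.1% to 10.7%, 11.8%, 16.7%, 3.12% and 3.2%. Those higher with hairpin 2 (8) became 14 with no filter, 4 without background correction, 5 with an offset of 50, 13 with median scaling and 4 on the deposited values. The share of all probes higher went from 14.1% to 11.6%, 3.67%, 9.85%, 28.7% and 3.68%.

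No paired analysis was possible because the control has 1 array and no label pairs it with a hairpin. Dim probes limit the reading of CDH1, KRT7, KRT19 and SNAI2.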

Other observations

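The probes for CTNND1, the p120 catenin that stabilises cadherins at the membrane, were not above background on any array, although 5 probes carry that symbol and its lowest detection p was 0.0104. The signals of its brightest probe were 171.4 (control), 172.7 (hairpin 1) and 171.2 (hairpin 2). LLGL2, a polarity protein gene with 6 probes, was likewise not above background on any array. MAL2, a transport protein of polarised epithelia, was above background on 2 arrays, with signals of 186.7 (control), 142.0 (hairpin 1) and 212.9 (hairpin 2). LLGL2 and MAL2 were chosen after their values were seen.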
